A study of Mus musculus with 4 samples.

Results

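The 37 DNA repair and damage checkpoint genes described here were taken by name from the symbols of a deposited table of 50600 genes, and each name matched exactly 1 row. They comprise 16 genes of homologous recombination, 10 Fanconi anaemia genes, 3 mismatch repair genes, 3 end joining genes, the single-strand break repair scaffold gene Xrcc1 and 4 checkpoint kinase genes. RNA was sequenced from Py8119 cells, a mesenchymal-like C57BL/6 line from a mouse mammary tumour by the labels, grown in serum-containing medium with no treatment. There were 2 libraries of genotype control, titled hygro (control 1 and 2), and 2 of genotype Mtss1 overexpression (overexpression 1 and 2). Mtss1 encodes a scaffold protein that bends membranes and binds actin. The construct, its promoter and whether each population is 1 clone are not given in the sources used here. No label states that a group's 2 libraries are separate cultures, so they may be technical repeats. Each p-value rests on the spread between such libraries, pooled in large part over genes of similar level.

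Cells answer a broken chromosome in steps. The kinases ATM and ATR sense breaks and stalled replication forks and activate the checkpoint kinases CHK2 and CHK1, which hold the cell cycle while repair proceeds. End joining ligates broken ends directly after the Ku heterodimer (KU70, encoded by Xrcc6, and KU80, encoded by Xrcc5) has bound them. Homologous recombination instead copies an intact sister chromatid and is used mainly in S and G2 phase. The Fanconi pathway unhooks crosslinks between the strands, and mismatch repair corrects replication errors. Loss of BRCA1 or BRCA2 function is known for its link to breast cancer.

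The unit was inferred to be CPM, that is, reads of a gene per 1000000 reads of a library size. The libraries sum to 982877 to 1016225, so that size is close to, but not exactly, the total of a library's reads. Control 1 and 2 held 20617788 and 22081639 recovered reads, and overexpression 1 and 2 held 15594209 and 16656638. Library sums also differed by group, at 1009970 and 1016225 in control and 982877 and 991293 with overexpression. Depth therefore cannot be told apart from genotype in this design. A member had 76.4 to 2758 reads in a library. Mtss1 read 54.5 and 50.5 CPM in control 1 and 2, against 118 and 119 CPM in overexpression 1 and 2. Of 9 mesenchymal markers 9 passed the expression filter, which asks for at least 1 CPM in at least 2 libraries, and of 10 epithelial markers 3 did, with Epcam, Krt5, Krt19 and Elf5 at 0 in the 4 libraries. Immune markers summed to 21.8 to 22.9 CPM in control and 97.2 to 97.8 CPM with overexpression, of which Cd68, a lysosomal gene not limited to immune cells, gave 17.4 to 19.8 and 91.9 to 92.4 CPM, while 10 of the 15, Cd3e among them, stayed under 3 reads in every library. Krt8 (562 and 608 to 367 and 368 CPM) and Krt18 were lower with overexpression. The mesenchymal list was mixed: 4 of its 9 genes were called lower, 3 higher and 2 in neither direction. Its largest called changes were in Sparc (log2 fold change 1.18), Twist1 (0.51) and Zeb2 (-0.42). Of 5 endothelial markers 1 passed the filter and 0 the test. The part of these markers in the results was not tested.

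The 37 genes passed the expression filter without exception and were compared by limma on log2(CPM + 1). With Mtss1 overexpression 16 were lower and 8 higher at an adjusted p under 0.05, and 13 did not pass. That is 24 of 37, in a comparison in which 66.1% of all 12510 tested genes were called, so the number of calls is close to the background. Among all tested genes 34.2% were lower and 31.9% higher. The median log2 fold change of the 37 genes was -0.14, beside -0.01 over all tested genes. Control and overexpression libraries were fully separated in 30 of the 37 genes, against 81.6% of all genes. Changes were modest: no member reached 2-fold on the log2(CPM + 1) scale, and 5 (Xrcc5, Chek1, Xrcc3, Fancl and Rad51d) passed 0.5 in size. Without control 2 the counts were 11 lower and 5 higher, and without overexpression 2 they were 10 and 5. Scaled to library sums they were 11 lower and 9 higher.

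**Figure D1:**
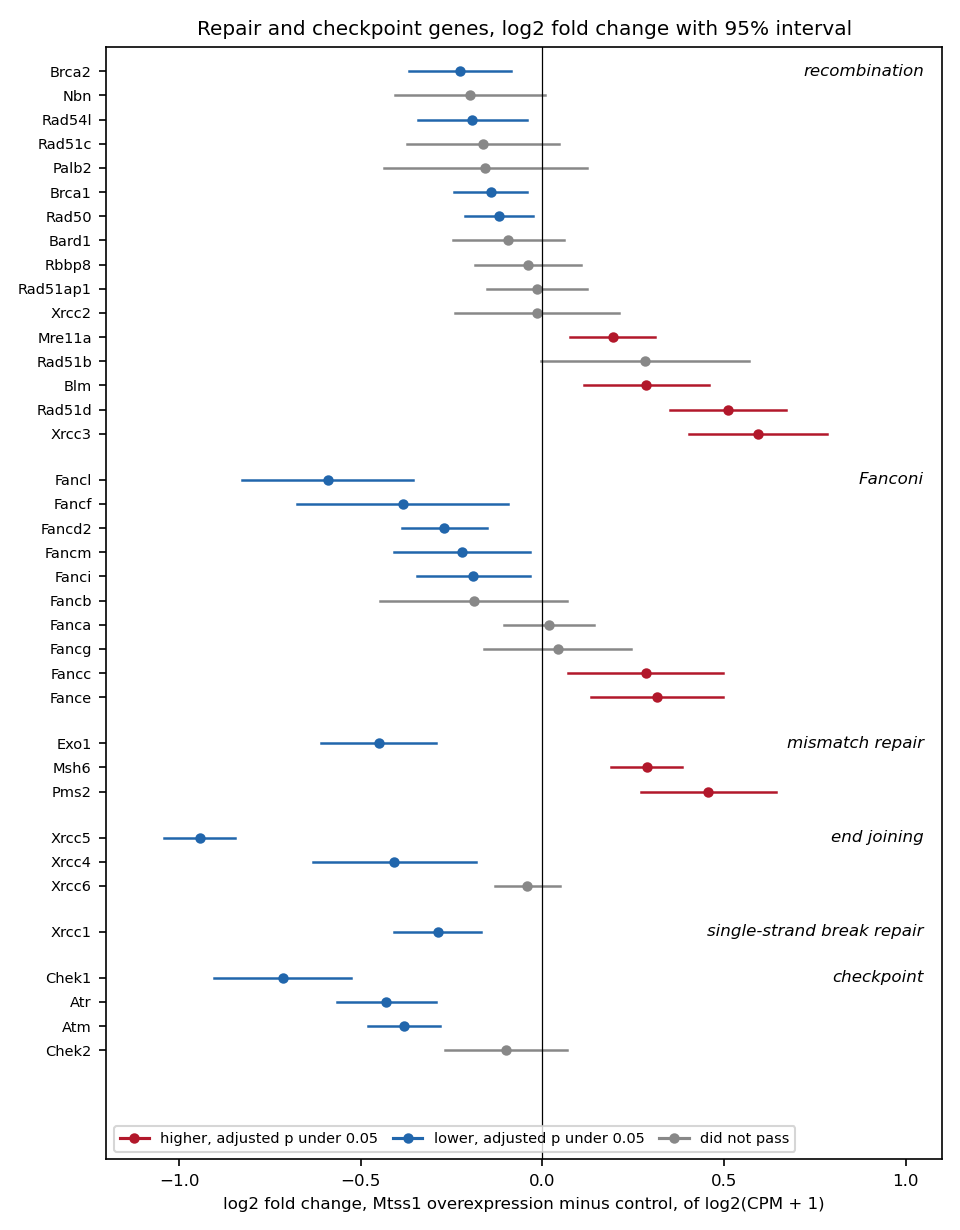
Log2 fold change (Mtss1 overexpression minus control, on the log2(CPM + 1) scale; points) of the 37 genes by role, with 95% intervals from limma (bars), coloured by call. Xrcc5 at -0.94 and Chek1 at -0.71 lie farthest to the left and Xrcc3 at 0.59 farthest to the right.

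Among the end joining genes, Xrcc5 fell the most of the 37 genes, by 48.4% in mean CPM, while its partner Xrcc6 did not pass the test. Xrcc5 encodes KU80, the larger Ku subunit. It read 112 and 110.2 CPM in control 1 and 2, against 57.2 and 57.4 CPM in overexpression 1 and 2. The libraries of a group were nearly equal and the groups lay far apart. Its mean went from 111 ± 1.28 to 57.3 ± 0.186 CPM (SD, n = 2). On the log2 scale this was -0.94 ± 0.05 (SE, limma adjusted p = 7.8e-14). Xrcc6, which encodes KU70, read 129 and 127 CPM without and 121 and 128 CPM with overexpression. Its groups overlapped, and its log2 fold change of -0.04 had a 95% interval of -0.13 to 0.05 (limma adjusted p = 0.41). The ratio of Xrcc5 to Xrcc6 within a library was 0.869 in control 1, 0.869 in control 2, 0.473 in overexpression 1 and 0.449 in overexpression 2. Per kilobase of merged exons, Xrcc5 stood at 43.5 CPM and Xrcc6 at 28.6 CPM in the control, the highest levels among the 37 genes. With overexpression they stood at 22.4 and 27.8 CPM. Merged exons pool those of every annotated transcript of a gene, expressed or not, so rankings per kilobase need not be those of transcript amounts.

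Xrcc4, whose product holds the ligase of end joining, also fell. It read 17.0 and 15.0 CPM in control 1 and 2, against 12.5 and 11.1 CPM in overexpression 1 and 2, with no overlap (log2 fold change -0.41 ± 0.11, SE, limma adjusted p = 0.0023). The calls of Xrcc5 and Xrcc4 held without each library in turn and in the other settings tried. Xrcc5 (chromosome 1, 72307421 to 72394952, plus strand, mm10) shares no exon bases with another annotated gene. Xrcc6 (chromosome 15, 81987835 to 82040085, plus strand) shares 344 exon bases with Desi1 and Xrcc4 (chromosome 13, 89774027 to 90089608, minus strand) 112 with Tmem167, both on the opposite strand. Neither Desi1 (log2 fold change 0.07, limma adjusted p = 0.18) nor Tmem167 (0.11, limma adjusted p = 0.07) passed. The counting is not stated to use strand, so reads of such pairs cannot be told apart.

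The promoters of the Ku pair are shown because the genes encode obligate partners and their RNA changed unequally. RefSeq windows (GRCm38.p6) run from 250 bases before to 50 after the gene start. Capitals mark matches, on either strand, to the E2F strings TTTGGCGC, TTTCCCGC, TTTCGCGC and TTTGCCGC, the CHR strings TTTGAA and TTCGAA, or the CCAAT box (CCAAT, read as ATTGG on the other strand), elements known from promoters of cell cycle genes. For Xrcc6, Chek1, Chek2 and Xrcc3 the RefSeq start differs from that of the GENCODE span printed in the text. The GENCODE start lies inside the window for Chek2 and Xrcc3 but outside it for Xrcc6 and Chek1. Matches and distances therefore hold for the RefSeq start only. The Xrcc5 window is chr1:72307171-72307470 (plus strand), and the Xrcc6 window is chr15:82016119-82016418 (plus strand).
Xrcc5: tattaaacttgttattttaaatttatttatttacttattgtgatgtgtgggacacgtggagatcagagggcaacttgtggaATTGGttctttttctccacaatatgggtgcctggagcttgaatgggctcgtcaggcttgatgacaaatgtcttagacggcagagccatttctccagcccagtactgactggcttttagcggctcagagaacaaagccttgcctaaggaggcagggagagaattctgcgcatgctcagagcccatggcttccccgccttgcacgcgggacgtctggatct
Xrcc6: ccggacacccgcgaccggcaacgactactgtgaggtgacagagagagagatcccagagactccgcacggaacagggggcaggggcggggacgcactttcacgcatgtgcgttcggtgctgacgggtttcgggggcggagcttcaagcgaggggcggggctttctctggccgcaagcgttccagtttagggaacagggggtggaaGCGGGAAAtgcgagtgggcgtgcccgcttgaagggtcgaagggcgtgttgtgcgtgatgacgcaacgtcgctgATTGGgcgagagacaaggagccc
The Xrcc5 window holds 1 CCAAT match, 169 bases before the start, and no E2F string. The Xrcc6 window holds an E2F string 46 bases before the start and a CCAAT match 27 bases after it.

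Of the 4 checkpoint kinase genes 3 fell and none rose, where 34.2% of all tested genes fell and 31.9% rose. Chek1, the gene of the ATR-activated effector kinase CHK1, read 25.4 and 23.8 CPM in control 1 and 2, against 14.4 and 14.8 CPM in overexpression 1 and 2. Its mean dropped from 24.6 ± 1.09 to 14.6 ± 0.230 CPM (SD, n = 2), or by 40.7%, with a log2 fold change of -0.71 ± 0.09 (SE, limma adjusted p = 4.1e-07). Atr, the fork-sensing kinase, read 47.5 and 47.3 CPM in control and 33.3 and 36.5 CPM with overexpression (log2 fold change -0.43 ± 0.07, limma adjusted p = 5.4e-06). Atm, the break-sensing kinase, read 100.3 and 99.8 CPM in control and 74.3 and 78.9 CPM with overexpression (-0.38 ± 0.05, limma adjusted p = 3.2e-07). In each of these genes the lowest control library lay above the highest overexpression library. Groups were separated, in either direction, in 81.6% of all tested genes. Their calls held without each library in turn.

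Chek2, the gene of the ATM-activated effector kinase, differed less. It read 25.6 and 24.9 CPM in control 1 and 2, against 24.1 and 22.9 CPM in overexpression 1 and 2, and did not pass although the libraries did not overlap. Its log2 fold change of -0.10 had a 95% interval of -0.27 to 0.07 (limma adjusted p = 0.29). The 2 effector kinase genes were at similar CPM in the control, with ratios of Chek1 to Chek2 of 0.992 and 0.957. With overexpression the ratios were 0.599 and 0.644. The ratio of Atm to Atr was 2.11 in each control library and 2.23 and 2.16 with overexpression, a small difference without overlap. Atm lies on chromosome 9 (53439149 to 53536740, minus strand), as do Atr (95857597 to 95951781, plus strand) and Chek1 (36708482 to 36727065, minus strand). Chek2 lies on chromosome 5 (110839979 to 110874145, plus strand). The recombination gene Mre11a, which rose, is also on chromosome 9 (14784654 to 14837123, plus strand).

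**Figure D2:**
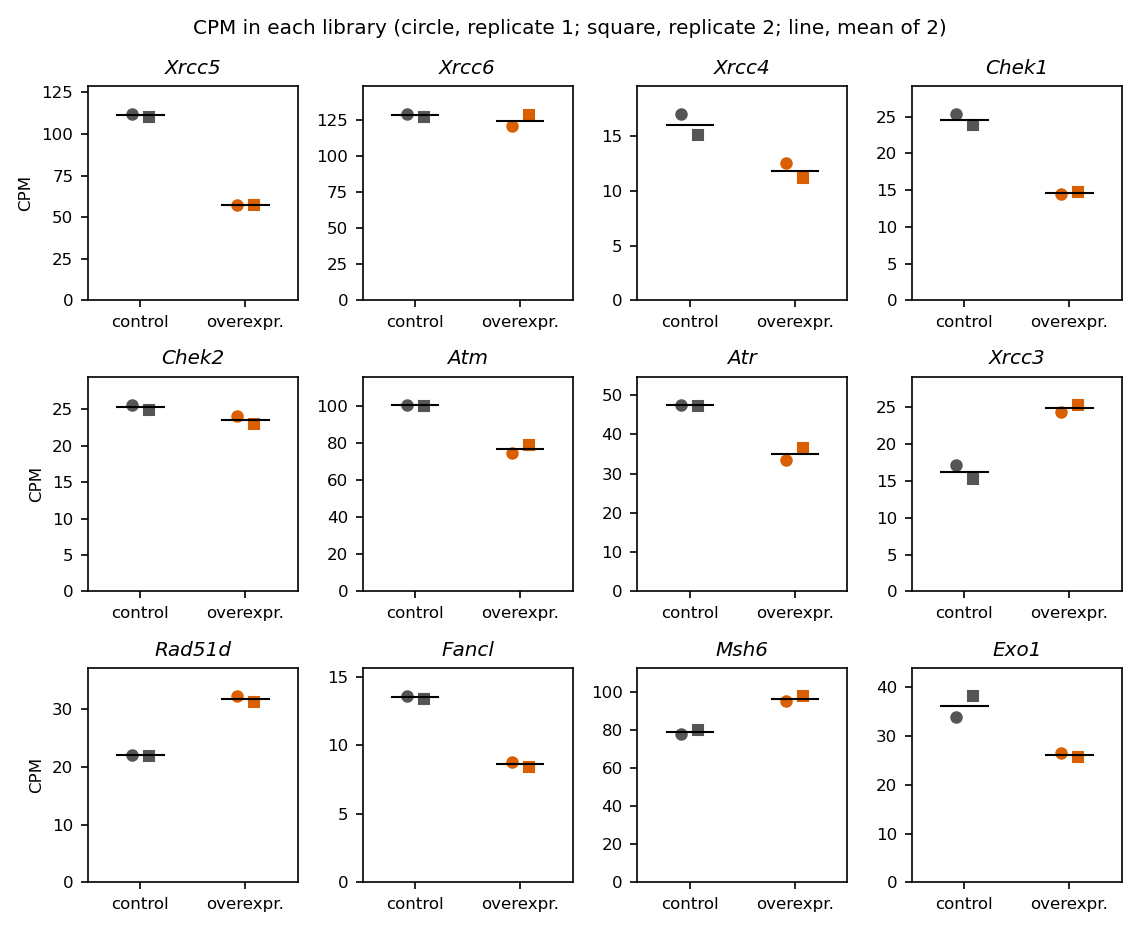
CPM in each of the 4 libraries for 12 of the genes (circles, replicate 1; squares, replicate 2; lines, mean of 2 libraries; each axis starts at 0). Xrcc5, Chek1, Atm and Atr are lower in both overexpression libraries, Xrcc3, Rad51d and Msh6 are higher in both, and Xrcc6 overlaps.

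The promoter windows of the 2 effector kinase genes are given with the same marking. The windows are chr9:36726609-36726908 (Chek1, minus strand) and chr5:110839733-110840032 (Chek2, plus strand). In Chek1 the capitals mark a further E2F form, GGCGGGAA, which was added after this window had been read.
Chek1: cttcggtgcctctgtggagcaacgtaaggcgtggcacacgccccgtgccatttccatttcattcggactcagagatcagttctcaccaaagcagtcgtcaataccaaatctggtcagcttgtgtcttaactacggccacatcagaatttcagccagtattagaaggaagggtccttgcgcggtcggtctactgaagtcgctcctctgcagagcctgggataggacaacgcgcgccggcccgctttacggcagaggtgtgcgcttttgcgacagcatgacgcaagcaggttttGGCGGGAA
Chek2: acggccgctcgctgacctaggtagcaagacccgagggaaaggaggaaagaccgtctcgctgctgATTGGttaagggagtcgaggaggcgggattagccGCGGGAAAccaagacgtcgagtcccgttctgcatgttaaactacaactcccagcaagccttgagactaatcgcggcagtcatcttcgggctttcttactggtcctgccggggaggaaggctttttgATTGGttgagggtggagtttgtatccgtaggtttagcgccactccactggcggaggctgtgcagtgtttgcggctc
The Chek1 window matches none of the strings searched at first, and the added form lies 42 bases after the start. The Chek2 window has CCAAT matches 186 and 26 bases before the start and an E2F string 152 bases before it.

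Homologous recombination genes went both ways: of 16, 4 rose, 4 fell and 8 did not pass, where 66.1% of all tested genes were called. The rises were largest in 2 of the genes related to the strand exchange recombinase, which form complexes that help load it on DNA. Xrcc3 read 17.1 and 15.2 CPM in control 1 and 2, against 24.4 and 25.3 CPM in overexpression 1 and 2. Mean expression rose from 16.2 ± 1.38 to 24.8 ± 0.637 CPM (SD, n = 2), a gain of 53.7% (log2 fold change 0.59 ± 0.09, SE, limma adjusted p = 6.2e-06). Rad51d read 22.1 and 21.9 CPM in control and 32.3 and 31.3 CPM with overexpression, a gain of 44.5% (0.51 ± 0.08, limma adjusted p = 4.7e-06). For both genes each overexpression library lay above each control library, where 81.6% of all tested genes were separated in either direction. The other members of this family did not pass. Rad51b read 5.83 and 5.20 CPM in control and 7.25 and 6.61 CPM with overexpression (0.28 ± 0.14, limma adjusted p = 0.075, and 0.0495 scaled to library sums). Rad51c read 17.9 and 15.8 CPM in control and 14.9 CPM in each overexpression library (-0.16 ± 0.10). Xrcc2 read 12.0 and 13.3 CPM in control and 12.7 and 12.3 CPM with overexpression, and its groups overlapped.

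RAD51D sits in a complex with RAD51B, RAD51C and XRCC2, and XRCC3 pairs with RAD51C. The ratio of Rad51d to Xrcc2 was 1.84 and 1.64 in the control libraries and 2.53 and 2.54 with overexpression. The ratio of Xrcc3 to Rad51c was 0.956 and 0.959 in control and 1.63 and 1.69 with overexpression. With 2 libraries against 2 an exact permutation test of a ratio cannot go below p = 0.333, so such ratios are given as values. Rad51d lies on chromosome 11 (82876434 to 82890614, minus strand). Xrcc3 (chromosome 12, 111803192 to 111813873, minus strand) shares 12 exon bases with the opposite-strand gene Klc1, which itself rose by 0.45 on the log2 scale (limma adjusted p = 2.5e-09).

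The Xrcc3 promoter, chr12:111813830-111814129 (minus strand), is shown for its repeated CCAAT boxes, which the capitals mark.
Xrcc3: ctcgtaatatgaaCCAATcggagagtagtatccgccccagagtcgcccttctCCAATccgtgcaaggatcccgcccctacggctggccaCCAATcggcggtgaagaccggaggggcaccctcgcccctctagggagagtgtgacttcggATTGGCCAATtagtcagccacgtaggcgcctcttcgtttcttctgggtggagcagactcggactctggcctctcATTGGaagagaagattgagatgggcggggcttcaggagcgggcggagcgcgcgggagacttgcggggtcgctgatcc
It holds 6 matches, between 237 and 27 bases before the start, and no E2F or CHR string.

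Of the breast cancer susceptibility genes, Brca2, which brings the recombinase to single-stranded DNA, fell. It read 38.6 and 38.0 CPM in control 1 and 2, against 31.9 and 33.2 CPM in overexpression 1 and 2, a decrease of 14.9% (log2 fold change -0.23 ± 0.07, SE, limma adjusted p = 0.0055). Brca1, a ubiquitin ligase subunit that promotes end resection, read 85.0 and 89.3 CPM in control and 80.2 and 77.5 CPM with overexpression (-0.14 ± 0.05, limma adjusted p = 0.013). Its partner Bard1 read 30.8 and 30.7 CPM in control and 27.9 and 29.5 CPM with overexpression and did not pass (-0.09 ± 0.07, limma adjusted p = 0.27). The ratio of Brca1 to Bard1 overlapped between the groups, at 2.76 and 2.91 in control and 2.87 and 2.63 with overexpression. Palb2, which bridges BRCA1 and BRCA2, read 8.32 and 8.01 CPM in control and 8.09 and 6.43 CPM with overexpression, with overlap. It had the lowest control level per kilobase of merged exons among the 37 genes, 1.11 CPM. Brca2 kept its call without each library in turn, whereas Brca1 did not pass without control 2 (limma adjusted p = 0.15) or overexpression 2 (0.082), nor when scaled to library sums (0.060).

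Genes of break recognition and end resection split within 1 complex. Mre11a, the nuclease of the MRE11-RAD50-NBS1 complex, read 59.7 and 56.2 CPM in control 1 and 2, against 63.8 and 69.0 CPM in overexpression 1 and 2 (log2 fold change 0.19 ± 0.06, SE, limma adjusted p = 0.0046). Rad50, the ATPase that tethers ends, read 98.0 and 99.8 CPM in control and 90.6 and 91.4 CPM with overexpression (-0.12 ± 0.04, limma adjusted p = 0.025). Nbn, which recruits ATM, read 16.2 and 16.9 CPM in control and 14.1 and 14.5 CPM with overexpression and did not pass (-0.20 ± 0.10, limma adjusted p = 0.083). Mre11a rose and Rad50 fell, but the sizes are small, and neither call held in every setting, as given below. In neither gene did the groups overlap, as in 81.6% of all tested genes. The ratio of Mre11a to Rad50 was 0.610 and 0.564 in control and 0.705 and 0.755 with overexpression. Mre11a shares 154 exon bases with the opposite-strand gene Ankrd49, which fell from 11.7 and 11.5 to 6.81 and 7.56 CPM. Rbbp8, whose product CtIP starts resection, overlapped between the groups at 41.1 to 47.2 and 40.8 to 44.9 CPM.

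Later steps of recombination gave 1 rise and 1 fall. Blm, a helicase that dissolves joined DNA intermediates, read 29.8 and 25.0 CPM in control and 32.2 and 34.9 CPM with overexpression (log2 fold change 0.29 ± 0.08, SE, limma adjusted p = 0.0043). Rad54l, a motor protein that remodels recombination intermediates, read 34.6 and 33.9 CPM in control and 31.0 and 28.7 CPM with overexpression (-0.19 ± 0.07, limma adjusted p = 0.023). It shares 1184 exon bases with the opposite-strand gene Lrrc41, which rose by 0.34 on the log2 scale (limma adjusted p = 1.1e-06). Rad51ap1, an accessory factor of strand exchange, overlapped at 41.0 to 42.2 and 39.2 to 43.3 CPM. Several of these calls were lost in other settings. Blm and Mre11a did not pass without control 2 (limma adjusted p = 0.13 and 0.059) or overexpression 2 (0.051 and 0.075). Rad54l did not pass without control 1, control 2 or overexpression 2 (0.054 to 0.15), and Rad50 without any 1 of the 4 (0.051 to 0.14). Scaled to library sums, Rad54l (limma adjusted p = 0.063) and Rad50 (0.11) did not pass, and without the expression filter Rad54l (0.051) and Blm (0.059) did not. Without control 2, and likewise without overexpression 2, 3 of the 16 recombination genes were called in place of 8.

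**Figure D3:**
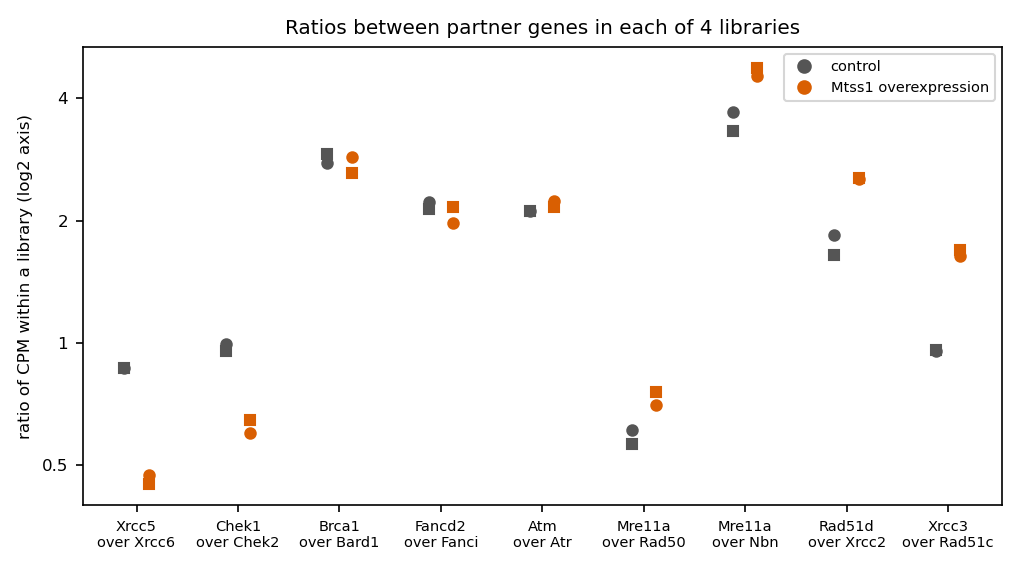
Ratio of CPM between 2 partner genes within a library (log2 axis; circles, replicate 1; squares, replicate 2), with control in grey and Mtss1 overexpression in orange. The ratio of Xrcc5 to Xrcc6 goes from 0.869 to below 0.5, while the ratios of Brca1 to Bard1 and of Fancd2 to Fanci overlap between the groups.

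Among the 10 Fanconi genes there were 5 falls, 2 rises and 3 genes short of the threshold, where 66.1% of all tested genes were called. The largest fall was in Fancl, the ubiquitin ligase of the core complex, which marks FANCD2 and FANCI. It read 13.6 and 13.4 CPM in control 1 and 2, against 8.81 and 8.44 CPM in overexpression 1 and 2, with no overlap. Its mean went from 13.5 ± 0.141 to 8.62 ± 0.261 CPM (SD, n = 2), a decrease of 36.1% (log2 fold change -0.59 ± 0.11, SE, limma adjusted p = 9.0e-05). Both substrates of that ligase were lower as well. Fancd2 read 67.3 and 63.6 CPM in control and 52.3 and 55.9 CPM with overexpression (-0.27 ± 0.06, limma adjusted p = 2.3e-04). Fanci read 30.4 and 29.7 CPM in control and 26.5 and 25.9 CPM with overexpression (-0.19 ± 0.08, limma adjusted p = 0.031). The ratio of Fancd2 to Fanci overlapped between the groups (2.14 to 2.22 and 1.97 to 2.16).

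Other core complex genes divided. Fancf, which holds the complex together, read 6.54 and 6.46 CPM in control and 4.95 and 4.55 CPM with overexpression (log2 fold change -0.39 ± 0.14, SE, limma adjusted p = 0.020), with the fewest reads of the 37 genes. Fancm, the translocase that anchors the complex on DNA, read 23.0 and 20.8 CPM in control and 18.3 and 18.9 CPM with overexpression (-0.22 ± 0.09, limma adjusted p = 0.036). Fance rose from 21.9 and 19.4 CPM to 26.7 and 25.2 CPM (0.32 ± 0.09, limma adjusted p = 0.0030), and Fancc, with which its product associates, from 13.3 and 15.6 CPM to 17.1 and 18.4 CPM (0.28 ± 0.10, limma adjusted p = 0.019). Fanca and Fancg overlapped between the groups, and Fancb, which lies on the X chromosome, read 8.77 and 9.62 CPM in control and 8.19 and 7.68 CPM with overexpression without passing (-0.19 ± 0.12, limma adjusted p = 0.19). Fancl and Fancd2 kept their calls without each library in turn. Fanci did not pass without any 1 of the 4 (limma adjusted p = 0.050 to 0.13), Fancm without control 1 or either overexpression library (0.058 to 0.28), Fancf without either control library or overexpression 2 (0.066 to 0.089), Fancc without control 1 or overexpression 2 (0.21 and 0.11) and Fance without control 2 (0.055). Scaled to library sums, Fanci and Fancm did not pass (limma adjusted p = 0.077 for each), and without the expression filter Fancm (0.080), Fancf (0.098) and Fancc (0.081) did not. The number of Fanconi genes called was 3 without control 1 or overexpression 2 and 4 without control 2.

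Several Fanconi genes share exon bases with an opposite-strand gene that is itself expressed. For Fancl the partner is Vrk2 (462 bases), which read 20.4 to 21.3 CPM in control and 29.3 to 31.3 CPM with overexpression, the direction opposite to Fancl. Fanci shares 921 bases with Polg, which rose slightly (log2 fold change 0.13, limma adjusted p = 0.02). Fancc shares 185 bases with 2010111I01Rik, which rose from 32.4 to 35.8 CPM in control to 57.2 to 58.9 CPM with overexpression. In all, 19 of the 37 genes share exon bases with another annotated gene, and for 11 that gene averaged at least 1 CPM.

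The 3 mismatch repair genes were called, in both directions, in a comparison that called 66.1% of all tested genes. Msh6, a subunit of the mismatch recognition dimer, read 77.5 and 79.8 CPM in control 1 and 2, against 94.9 and 97.7 CPM in overexpression 1 and 2. Mean expression rose from 78.7 ± 1.63 to 96.3 ± 1.98 CPM (SD, n = 2), or by 22.3% (log2 fold change 0.29 ± 0.05, SE, limma adjusted p = 1.3e-05). Pms2, the endonuclease subunit that nicks the faulty strand, read 17.9 and 16.5 CPM in control and 23.5 and 24.4 CPM with overexpression, a gain of 39.3% (0.46 ± 0.09, limma adjusted p = 1.1e-04). Exo1, the exonuclease that removes that strand and also resects broken ends, read 33.8 and 38.2 CPM in control and 26.4 and 25.7 CPM with overexpression, a decrease of 27.7% (-0.45 ± 0.08, limma adjusted p = 2.1e-05). None of the 3 overlapped between groups, as in 81.6% of all tested genes, and their calls held without each library in turn. The 2 same-strand genes that share exon bases with Pms2, Gm42421 and Rsph10b, read at most 0.383 and 0.219 CPM. Xrcc1, the scaffold of single-strand break repair, read 58.0 and 57.9 CPM in control and 48.7 and 45.9 CPM with overexpression (-0.29 ± 0.06, limma adjusted p = 1.4e-04), and its call also held.

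Promoter windows were found in the RefSeq table for 30 of the 37 genes, some with more than 1 window. An E2F string stood in 7 of them (Bard1, Brca2, Chek2, Fancg, Msh6, Rad51c and Xrcc6), beside 2.26% of all 32851 windows and 4.91% of tested genes with a window. Of the 7, 5 belong to genes that did not pass the test, 1 to a gene that fell and 1 to a gene that rose. CCAAT stood in 21 of the 30, beside 37.4% of all windows and 44.0% of tested genes. It was present in the 7 genes with a window that rose, in 7 of 13 that fell and in 7 of 10 that did not pass. A CHR string stood in 3 (Atr, Bard1 and Rad51b), beside 19.2% of all windows and 16.4% of tested genes. The added form GGCGGGAA stood in 6 (Chek1, Fancb, Fancm, Msh6, Rad51ap1 and Rad51c), beside 2.19% of all windows and 4.89% of tested genes. Matches of different motifs overlapped in 2 places. A match shows only that the letters are there.

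Some of the 37 genes start close to a neighbour on the opposite strand. Such a protein-coding gene started within 1000 bases, on either side, for 16 of them, and 14 of those neighbours were tested. Some of these pairs overlap in exons. Mre11a shares 154 exon bases with Ankrd49, Fancf 253 with Gas2 and Xrcc4 112 with Tmem167. Member and neighbour were both called in the same direction for 4 pairs and in opposite directions for 2, in 6 pairs 1 of them was called and in 2 neither was, where 66.1% of all tested genes were called. These counts are given as a description. Nbr1, whose start lies 194 bases from that of Brca1, read 331 to 334 CPM in control and 273 to 277 CPM with overexpression (log2 fold change -0.27). Npat, 307 bases from Atm and known as a regulator of histone genes, fell by 0.18 on the log2 scale. Zfyve21, 297 bases from Xrcc3, rose by 0.44 and Aimp2, 117 bases from Pms2, by 0.19. Emc3, 30 bases from Fancd2, rose by 0.26 while Fancd2 fell, and Ankrd49, 202 bases from Mre11a, fell by 0.62 while Mre11a rose.

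A wider set of 108 repair and checkpoint genes that are not among the 37 had 102 tested members. Of these, 41 were lower, 24 higher and 37 not past the test (median log2 fold change -0.09). The shares over all tested genes were 34.2% lower and 31.9% higher. Recombination had 13 lower and 6 higher of 25. The nuclease subunit genes Mus81 (32.0 to 32.9 CPM in control, 17.0 to 18.4 CPM with overexpression, log2 fold change -0.84) and Eme2 (-1.15), whose products cut joined molecules together, and Rmi2 (-1.37), a partner of BLM, fell most. Of 13 further Fanconi genes 4 rose and 3 fell, among them Faap100 (0.75), a core complex subunit, Mad2l2 (0.75), a subunit of a translesion polymerase, and the crosslink nuclease gene Ercc4 (-0.74). Of 10 further mismatch repair genes 4 fell and 3 rose, led by Mlh3 (0.91), Msh3 (-0.73) and the sliding clamp gene Pcna (-0.62). End joining had 3 higher and 2 lower of 9: Prkdc, the kinase that binds Ku on DNA ends, fell by 0.32, and Lig4 (0.27) and Aplf (0.23) rose. The checkpoint set had 8 lower and 2 higher of 17, with Trp53, the p53 gene, going from 148 and 157 CPM to 97.4 and 94.3 CPM (-0.66), and with falls in the ubiquitin ligase gene Rnf168 (-0.38) and the histone gene H2afx (-0.38). Base and nucleotide excision repair had 11 lower and 6 higher of 28, led by Apex1 (-0.75), Polb (0.69) and Ercc5 (0.61).

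Many repair genes are expressed with the cell cycle, so cell cycle genes were measured in the same libraries. For scale, 34.2% of all tested genes fell and 31.9% rose. Of 38 genes of G1/S and DNA replication 27 fell and 3 rose (median log2 fold change -0.32), with Prim2 (-0.83), Mcm2 (-0.78) and Fen1 (-0.76) in front. Their summed level was 3059 to 3177 CPM in control and 2369 to 2413 CPM with overexpression. Of 35 genes of G2/M and mitosis 25 rose and 3 fell (median 0.32), with Cdc20 (0.72), Prc1 (0.68) and Cdc25c (0.62) in front, and their sum was 4407 to 4646 CPM in control and 5488 to 5546 CPM with overexpression. The part of these genes' shift in the values of the repair genes was not tested. Of 22 p53 target genes 9 fell and 8 rose (median -0.04). Pmaip1, a pro-apoptotic gene, read 0 and 0.138 CPM in control and 3.28 and 5.12 CPM with overexpression, Sesn2 fell by 1.31 and Perp rose by 1.17.

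**Figure D4:**
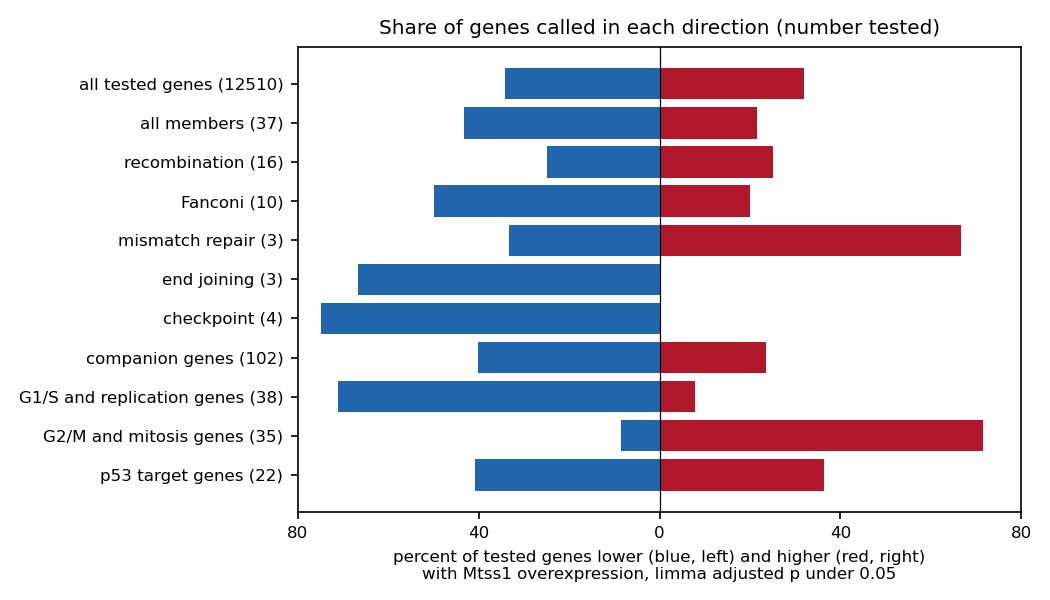
Percent of tested genes lower (left) and higher (right) with overexpression (limma, adjusted p under 0.05) for all tested genes, the 37 genes, their roles and the other lists, with the number tested in brackets. Over all tested genes the bars are 34.2% and 31.9%, and the G1/S and G2/M lists lean to opposite sides.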

How the data were processed

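The authors' deposited table gives CPM per gene for 4 libraries; this unit was inferred from the values, which sum to 982877 to 1016225 per library, and the sources used here do not give what scaled them. FastQC 0.11.2, STAR, RSEM and build mm10 are named, without roles or settings, per the submitters' processing notes. The step of 1 read was read from the low values of each library, which gave hundredths of reads within 0.001 read for 100% of nonzero values and whole reads within 0.005 read for 79.6% to 80.5%.

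Log2(CPM + 1) was compared between groups with limma 3.58.1 in R 4.3.3 (mean-dependent prior) after removal of genes that reached 1 CPM in fewer than 2 libraries. The prior, drawn from genes of similar level, had 19.96 degrees of freedom, against 2 from a gene's own libraries. Benjamini-Hochberg adjustment ran over all tested genes, with a threshold of 0.05. Fold changes on this scale understate those of low genes. The code was tested on simulated data. Coordinates, exons and merged exon lengths come from GENCODE M21, which matched 50376 identifiers, and promoters from RefSeq. Each of the 37 genes is named, with up to 3 called genes of each other list, by largest change. The members and lists were chosen with earlier results of these data known; the partner pairs and overlapping or neighbouring genes were chosen with the values in view.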

Additional observations from a re-analysis of the deposited data

How the results depend on the processing

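Over 12 alternative settings, 395 of 444 values of the 37 genes kept their direction and their side of the threshold, and 14 of the 24 called genes did so in every setting. The cause of the changes was not tested. Without a filter 4 Fanconi genes were called in place of 7. The median log2 fold change of the 37 genes was -0.11 with a pseudocount of 5 and -0.11 scaled to library sums. Leaving out 1 library, where the lone library of a group is assumed to vary like the others, gave 5 to 8 genes higher, 10 to 13 lower, 3 to 7 recombination genes called, 3 to 5 Fanconi genes called and 7173 to 7288 genes called in all. The replicate block left 8 higher and 16 lower and 8377 genes called in all; the numbers do not pair the samples by the labels, and deviations of same-numbered libraries correlated at -0.02. Limma-voom on the recovered reads gave 8 higher and 16 lower. In these 12 settings the sign turned only in genes that did not pass. Scaled to library sums, Rad51ap1 was at 0.0220 and Xrcc2 at 0.0206. With 1 library left out, Rad51ap1 ranged from -0.0850 to 0.0558, Xrcc2 from -0.0852 to 0.0568, Rbbp8 from -0.137 to 0.0585, Fanca from -0.0330 to 0.0701, Fancg from -0.0862 to 0.169 and Xrcc6 from -0.0828 to 0.00024. Depth limits Fancf most, at 76.4 to 140 reads per library.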
